A study of Mus musculus with 10 samples.

Results

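The collagen genes of the mouse ovary were examined as every row of the count table whose symbol has the form of a collagen alpha chain (Col, a type number, a and a chain number), which gave 44 of 55487 genes. Of these, 11 encode fibrillar collagens, 6 encode the type IV collagens of basement membranes, and 27 belong to the other classes, namely 2 multiplexins, 6 beaded filament (type VI) chains, 9 fibril-associated chains, 3 short-chain network chains, 1 anchoring fibril chain, 4 transmembrane chains and 2 chains left unclassified. Whole ovaries of female mice on the C57BL/6J background were sequenced in 3 groups, all collected 48 h after an intraperitoneal dose of 10 IU PMSG (pregnant mare serum gonadotropin, a hormone that drives follicle growth). The Control group (n = 4) was 8 weeks old, and the Aged group (n = 3) was 11 months old per the labels. The Aged+CF group (n = 3) was also 11 months old and received 200 μL of CEFFE at 3 μg/μL of protein. Per the study's methods, this dose went into the tail vein once every 2 days over 2 weeks. CEFFE is cell-free fat extract, a protein-containing liquid prepared from emulsified and centrifuged adipose tissue. Control and Aged mice were given an equal volume of saline over the same time, per the study's methods.

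Collagens are the main structural proteins of the extracellular matrix, and each is built from chains that wind into a triple helix along repeats of glycine followed by a pair of other residues (Gly-X-Y). Fibrillar collagens such as types I and III assemble into the fibres of the stroma and of the capsule around the ovary, type IV collagens form the sheet-like basement membranes that surround follicles and vessels, and type VI forms beaded filaments between fibres and cells. The ovary remodels this matrix with each cycle as follicles grow, rupture and become corpora lutea.

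The repeat that defines the family was read from the longest complete coding sequence of each gene in GENCODE M21 (GRCm38), which was found for all 44. Counting only runs of 5 or more Gly-X-Y triplets, the fibrillar chains held 327 to 364 triplets in 2 or 3 runs. Their longest runs had a median of 338 triplets and a range of 216 to 344. The type IV chains held 425 to 444 triplets in all, but cut into 22 to 27 runs, none longer than 66. The type VI chains held 103 to 110 triplets. Stretches of 30 codons are shown for a fibrillar chain, Col1a1 (chr11:94936224-94953042, plus strand), from within its longest run of 338 triplets. They are also shown for 3 chains that passed the test between groups, each at a break in its repeat. Capitals mark the glycine codons (GGN) that stand in register, and lower case marks all else, so that a break is seen as a longer gap between capitals.
Col1a1, codons 675 to 704: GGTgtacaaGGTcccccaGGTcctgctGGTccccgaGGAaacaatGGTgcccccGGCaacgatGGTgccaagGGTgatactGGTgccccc
Col4a4, codons 156 to 185: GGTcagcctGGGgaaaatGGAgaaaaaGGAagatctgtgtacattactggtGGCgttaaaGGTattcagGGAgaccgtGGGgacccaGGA
Col6a6, codons 1505 to 1534: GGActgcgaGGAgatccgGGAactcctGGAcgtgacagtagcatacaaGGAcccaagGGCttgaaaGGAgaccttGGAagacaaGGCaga
Col9a2, codons 104 to 133: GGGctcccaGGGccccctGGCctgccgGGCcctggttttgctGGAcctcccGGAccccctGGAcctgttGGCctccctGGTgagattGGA
In Col1a1 the capitals were evenly spaced across the stretch, with 10 glycine codons in register. The Col9a2 stretch also held 10 despite its break, and the Col4a4 and Col6a6 stretches held 9.

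The libraries held 15761789 to 21318254 assigned reads per ovary. Levels are given as CPM, counts scaled to the library total after correction by the trimmed mean of M values, and values are listed for Control 31, 32, 33 and 34, Aged 31, 33 and 34, and Aged+CF 30, 32 and 34 in that order. Levels that are compared between genes are given per length, as FPKM (counts scaled by gene length and library total). A collagen was said to have passed where its fold change was at least 1.5 and its edgeR quasi-likelihood p, adjusted by Benjamini-Hochberg over all 18956 genes tested, was under 0.05. The 10 ovaries were not alike within groups. The biological coefficient of variation was 0.378 in Aged, against 0.209 in Control and 0.193 in Aged+CF. Aged 33 held the lowest collagen share, 0.402% of its reads, where the other 9 ovaries held 0.762% to 1.01%. There, 33 of 40 tested collagens were below every Control ovary, beside 21 in Aged 31, 14 in Aged 34 and 10 to 20 in Aged+CF. Each Control ovary had 4 to 16 below every other Control ovary, and the share of all genes was not counted. Aged 33 also had the fewest genes with a count, 25684 against 27383 to 28584 in the other 9. Its share of reads from mt-Co1 was the highest, 2.04% against 1.01% to 1.43%. Its scaling factor was the lowest, 0.871 against 0.97 to 1.05, and its sum of luteal markers the highest, 23138.1 CPM against 4324.3 to 16829.8. The part of these traits in its collagen values was not tested. The collagens of Aged 33 had a median log2 distance of -1.07 from the Control mean, while the median over all genes was -0.05. Aged 34 had the opposite sign, with a median of 0.08, and it held the highest sums of stromal fibroblast markers (2189.2 CPM against 686.0 to 1186.4 in the other 9) and macrophage markers (1771.4 CPM against 356.0 to 758.0). Markers of oviduct epithelium, a neighbouring tissue, summed to 329.0 CPM in Aged 34 and 416.0 CPM in Control 33, and to 11.3 to 43.3 CPM in the other 8. In whole ovaries, fewer cells of a type and less RNA per cell cannot be told apart.

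**Figure D1:**
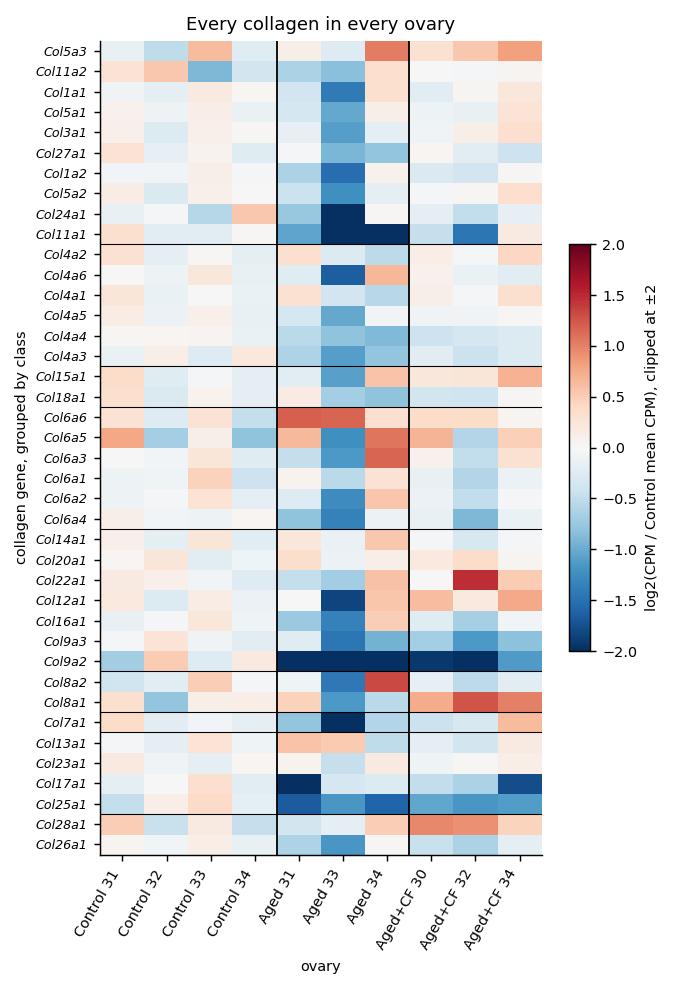
Log2 ratio of the CPM of each of the 40 tested collagens (rows, grouped by class from fibrillar at the top to unclassified at the bottom) to its mean in the 4 Control ovaries, for all 10 ovaries (columns, with black lines between the groups and colours clipped at ±2). The column of Aged 33 is blue in most rows. It has 33 of 40 collagens below every Control ovary, beside 21 in Aged 31 and 14 in Aged 34, whose column is mixed. The share of all genes below every Control ovary was not counted.

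The heatmap of every collagen in every ovary shows how unlike the 3 Aged ovaries were. For that reason the counts of collagens in the comparisons with Aged are also given without Aged 33 and without Aged 34.

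A small number of genes carried most of the collagen reads. Col1a2, Col3a1, Col4a1, Col6a1, Col1a1 and Col4a2 together made up 70.0% of the summed collagen CPM over the 10 ovaries. Per length, the highest mean was that of Col6a1, a type VI chain, at 207 FPKM, followed by Col1a1 at 118 FPKM, Col3a1 at 106 FPKM, Col4a1 at 106 FPKM and Col4a2 at 98.6 FPKM. Each of these neighbours in the order differed by less than the spread between ovaries in Control, except that Col6a1, at 226 ± 61.3 FPKM (SD, n = 4), stood above Col1a1, at 128 ± 15.3 FPKM. The order also depends on the gene lengths behind the FPKM, which differ unevenly from the exon lengths of GENCODE M21. For Col4a1 they are 10090 and 7464 bases, for Col1a2 16209 and 12426, and for Col1a1 6934 and 6563. The size of an FPKM ratio between chains depends on these lengths too, but its comparison between groups does not. At the other end, 4 collagens were left out by the filter on low counts. Col2a1, the fibrillar collagen of cartilage, had 0 to 7 reads per ovary, Col9a1 had 0 to 2, and Col19a1 had 0 to 8. Col10a1, the collagen of hypertrophic cartilage, had 6, 6, 7 and 7 reads among Control ovaries, 2, 2 and 2 among Aged ovaries and 4, 4 and 5 among those given CEFFE.

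The question of the comparison of Aged with Control was which genes differ between the ovary of a young and of an old mouse. Among the 40 collagens tested, 5 fell in Aged (Col9a2, Col11a1, Col25a1, Col4a3 and Col4a4), or 12.5%, where 6.06% of all tested genes did so, and 1 rose (Col6a6), or 2.5%, where 5.0% did. At the unadjusted p, the rule in the series' own text, 8 collagens were lower, against 9.44% of all genes, and 1 was higher, against 8.79%; the lower ones added Col6a4, Col7a1 and Col9a3. The values of 9 collagens in Aged lay below all 4 Control values, against 15.6% of all genes, and those of 1 lay above, against 11.8%. The median log2 fold change of the 40 collagens was -0.30, beside -0.001 over all genes tested, and 31 of the 40 were negative, where 50.1% of all genes were. The counts moved with the Aged ovaries that were kept, and so did the counts over all genes. Without Aged 34, 11 collagens passed as lower, against 7.54% of all genes, and 1 as higher, against 8.55%, with a median of -0.62. Without Aged 33, 4 passed as lower, against 4.95% of all genes, and 0 as higher, against 4.14%, with a median of -0.02. At the unadjusted p, 18 were lower without Aged 34, against 11.3% of all genes, and 5 without Aged 33, against 8.58%. In Aged without Aged 34, 21 collagens lay below all Control values, against 24.2% of all genes, and 9 did so without Aged 33, against 21%.

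**Figure D2:**
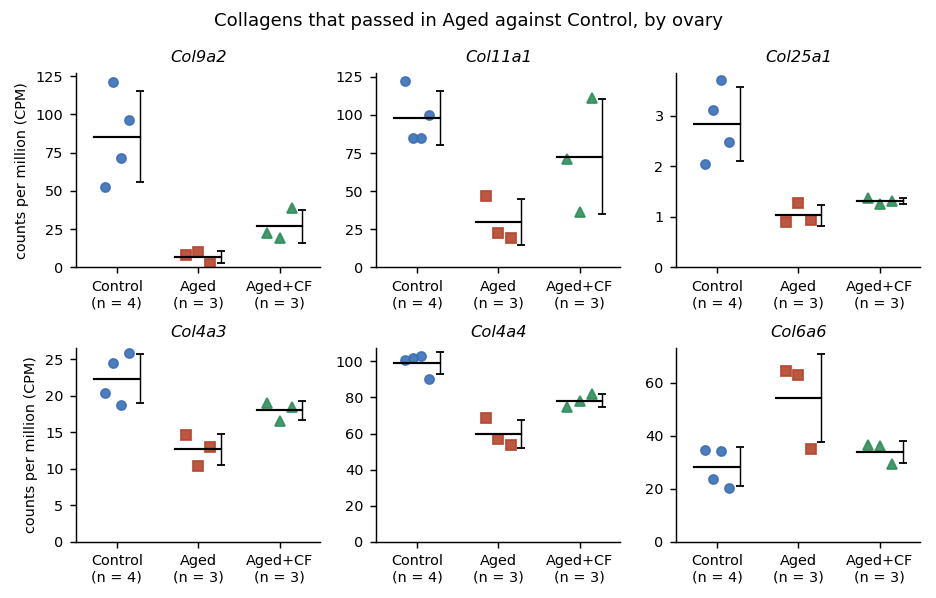
CPM of the 6 collagens that passed in Aged against Control, in each ovary of Control (circles, n = 4), Aged (squares, n = 3) and Aged+CF (triangles, n = 3). Horizontal lines are group means and vertical bars are 1 SD; the Aged values lie outside the Control range in all 6 panels, below it in 5 and above it for Col6a6.

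The largest fold change of any collagen belonged to Col9a2 (ENSMUSG00000028626, chr4:121039385-121055322, plus strand, GRCm38), a chain of type IX collagen, which sits on the surface of fibrils and is best known from cartilage. Its level was 52.7, 121, 71.2 and 96.2 CPM among Control ovaries, 7.99, 9.88 and 2.15 CPM among Aged ovaries and 22.4, 19.0 and 38.9 CPM among those given CEFFE. All Aged values lay under all others, and the Aged+CF values lay between, under every Control value. Col9a2 fell by 3.69 ± 0.52 (SE) on the log2 scale in Aged, 12.9-fold, with an edgeR adjusted p of 0.00497. Type IX collagen is a heterotrimer, but its partner chains were far lower. Col9a3 was at 0.705 to 2.31 CPM in all ovaries, and the FPKM ratio of Col9a2 to Col9a3 was 70.8 ± 21.7 for Control, 11.2 ± 9.82 for Aged and 40.6 ± 14.7 for Aged+CF. For Col9a3 the log2 fold change in Aged was -0.78 ± 0.31 (adjusted p = 0.116, edgeR).

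Col11a1 (ENSMUSG00000027966, chr3:114030540-114220718, plus strand) encodes a minor fibrillar chain that co-assembles with the major fibrils and limits their width. It was at 122, 84.8, 84.8 and 100 CPM among Control ovaries, 46.9, 22.6 and 19.2 CPM among Aged ovaries and 71.1, 36.1 and 111 CPM among those given CEFFE. Aged and Control did not overlap, while the Aged+CF values spread across both ranges, with Aged+CF 32 within Aged and Aged+CF 34 within Control. The log2 fold change in Aged was -1.73 ± 0.40 (adjusted p = 0.0211, edgeR). This call was lost without Control 34 (adjusted p = 0.0511) and without Aged 33 (adjusted p = 0.0692), with log2 fold changes of -1.72 and -1.53.

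Col25a1 (ENSMUSG00000058897, chr3:130131501-130599877, plus strand) encodes a transmembrane collagen whose shed ectodomain was first described in amyloid plaques of the brain. Its levels were low throughout, at 2.04, 3.12, 3.70 and 2.49 CPM among Control ovaries, 0.895, 1.27 and 0.937 CPM among Aged ovaries and 1.38, 1.26 and 1.31 CPM among those given CEFFE. All 6 values of the aged animals, treated or not, lay under the lowest Control value. It fell by 1.46 ± 0.28 in Aged on the log2 scale (adjusted p = 0.0114, edgeR). By limma on log2(FPKM + 1), a scale that shrinks the change of low genes, the difference was -0.17 and under the fold threshold. Other annotated genes overlap Col25a1 on the same strand, among them Gm9397 and Gm42837.

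Within type IV collagen, the pair Col4a3 and Col4a4 fell in Aged, and none of the other 4 chains passed with all ovaries in the fit. The chains form separate networks: Col4a1 and Col4a2 make the network of nearly all basement membranes, and Col4a3, Col4a4 and Col4a5 make a more restricted one, known from the kidney glomerulus and affected in Alport syndrome. Col4a4 (ENSMUSG00000067158, chr1:82448423-82586849, minus strand) was at 101, 102, 103 and 90.1 CPM among Control ovaries, 68.4, 56.7 and 53.9 CPM among Aged ovaries and 74.5, 78.2 and 82.0 CPM among those given CEFFE. The groups did not overlap in any pairing, with Aged lowest, Aged+CF between and Control highest. It fell by 0.73 ± 0.10 on the log2 scale in Aged (adjusted p = 0.00497, edgeR), which was the smallest standard error of the 6 that passed. Col4a3 (ENSMUSG00000079465, chr1:82586921-82722059, plus strand) was at 20.3, 24.4, 18.7 and 25.8 CPM among Control ovaries, 14.6, 10.4 and 12.9 CPM among Aged ovaries and 19.0, 16.5 and 18.4 CPM among those given CEFFE. Aged lay under both other groups, and Aged+CF overlapped Control by its highest value. Col4a3 fell by 0.82 ± 0.16 in Aged on the log2 scale (adjusted p = 0.0121, edgeR), and by limma on log2(FPKM + 1) the difference of -0.57 was under the fold threshold. The annotated genes n-R5s213 and, on the other strand, C430014B12Rik overlap Col4a3, and none overlaps Col4a4, Col9a2 or Col11a1.

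These 2 genes stand head to head on chromosome 1. Their annotated starts in GENCODE M21 are separated by 71 bases, at chr1:82586850-82586920, and the RefSeq promoter table (GRCm38.p6) gave the stretch, which is shown because a single short interval separates both starts.
Col4a4 and Col4a3, plus strand: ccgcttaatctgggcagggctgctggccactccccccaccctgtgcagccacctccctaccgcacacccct
No letters are in capitals, since neither CCAAT nor GGGCGG nor TATAAA, the motifs searched on both strands, occurred in these 71 bases, of which 69.0% were G or C. In promoter windows of 300 bases over all 32851 entries of the table, 37.4% held CCAAT, 35.7% held GGGCGG and 13.6% held TATAAA. Those windows are longer than the 71 bases, and shares at that length were not counted, so the absence cannot be judged against them. The ratio of Col4a4 to Col4a3 FPKM was 4.54 ± 0.892 for Control, 4.77 ± 0.629 for Aged and 4.37 ± 0.421 for Aged+CF, so that the group means differed by less than 1 SD. The other head-to-head pairs of the class are Col4a1 with Col4a2 on chromosome 8, whose annotated transcripts overlap, and Col4a6 with Col4a5 on the X chromosome, 1308 bases apart.

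**Figure D3:**
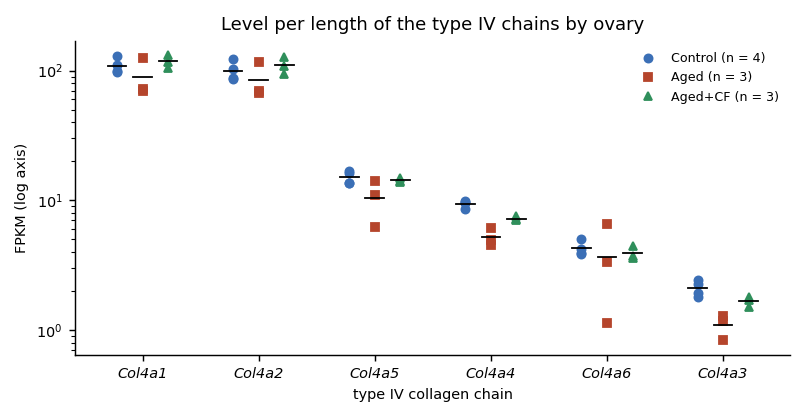
FPKM on a log axis of the 6 type IV chains, ordered by mean level, in each ovary of Control (circles, n = 4), Aged (squares, n = 3) and Aged+CF (triangles, n = 3), with group means as black lines. Col4a1 and Col4a2 stand highest and overlap between groups, whereas the Aged points of Col4a4 and Col4a3 lie under the Control points.

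The common chains of type IV did not pass. Col4a1 was at 1255.4, 966, 1060.3 and 975 CPM among Control ovaries, 1316.2, 814 and 725 CPM among Aged ovaries and 1151.7, 1047.2 and 1327.8 CPM among those given CEFFE. Aged 31 was above every Control ovary and the other Aged ovaries were below, and the log2 fold change in Aged was -0.16 ± 0.21 with a 95% interval of -0.62 to 0.30. Col4a2 was at 820, 578, 674 and 584 CPM among Control ovaries, 831, 548 and 464 CPM among Aged ovaries and 730, 649 and 881 CPM among those given CEFFE. It followed Col4a1 from ovary to ovary, and the FPKM ratio of Col4a1 to Col4a2 stayed between 1.01 and 1.14 over all 10 ovaries. The ratio of Col4a4 to Col4a1 was 0.0870 ± 0.00955 for Control, 0.0605 ± 0.0110 for Aged and 0.0621 ± 0.00628 for Aged+CF, and its Control values (0.0747 to 0.0976) did not overlap those of Aged (0.0481 to 0.0689) or of Aged+CF (0.0571 to 0.0691). For Col4a5 and Col4a6, which are X-linked chains, the log2 fold changes in Aged were -0.42 ± 0.19 and -0.12 ± 0.39.

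The collagen that rose in Aged was Col6a6 (ENSMUSG00000043719, chr9:105687809-105828160, minus strand), one of the long alternative chains that can take the place of Col6a3 in type VI collagen. Its level was 34.5, 23.7, 34.4 and 20.2 CPM among Control ovaries, 64.4, 63.1 and 35.1 CPM among Aged ovaries and 36.4, 36.2 and 29.2 CPM among those given CEFFE. Aged 31 and Aged 33 were nearly equal and high, while Aged 34 was just above the highest Control. The log2 fold change was 0.94 ± 0.25 (adjusted p = 0.0316, edgeR), and the call was lost without Control 32, Control 34, Aged 31 or Aged 33, with adjusted p from 0.0772 to 0.0935. It was also lost when only Control and Aged were fitted (adjusted p = 0.0668, edgeR) and by limma on log2(FPKM + 1) and log2(FPKM + 0.1) (adjusted p = 0.0550 and 0.0557). In Aged 33, 2 collagens were above every Control ovary, Col6a6 and Col13a1, a transmembrane collagen at 7.97 CPM there and 4.86 to 6.69 CPM in Control. A gene on the other strand, Gm38314, overlaps Col6a6, and whether the counting used strand is not given in the sources used here.

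The other type VI chains did not pass and varied widely within Aged. Col6a1 was at 924, 929, 1352.7 and 742 CPM among Control ovaries, 1038.1, 678 and 1208.2 CPM among Aged ovaries and 887, 659 and 910 CPM among those given CEFFE. Col6a2 was at 423, 448, 545 and 397 CPM among Control ovaries, 378, 190 and 663 CPM among Aged ovaries and 417, 321 and 444 CPM among those given CEFFE. Col6a3 was at 312, 301, 370 and 264 CPM among Control ovaries, 224, 141 and 702 CPM among Aged ovaries and 330, 221 and 387 CPM among those given CEFFE. In all 3 genes Aged 33 was the lowest and Aged 34 the highest of the Aged ovaries, and their log2 fold changes in Aged were -0.02 ± 0.24, -0.14 ± 0.33 and 0.19 ± 0.45. For Col6a3 the value without Aged 34 was -0.74 ± 0.25. The ratio of Col6a6 to Col6a2 FPKM was 0.0512 ± 0.0115 for Control, 0.153 ± 0.116 for Aged and 0.0730 ± 0.0194 for Aged+CF. The neighbouring genes Col6a5 and Col6a4 lie on the same strand within 28810 bases of the next, and had log2 fold changes in Aged of 0.45 ± 0.54 and -0.67 ± 0.27.

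The major fibrillar collagens did not pass in Aged. Col1a1, which with Col1a2 makes type I collagen, was at 815, 758, 975 and 883 CPM among Control ovaries, 661, 323 and 1071 CPM among Aged ovaries and 732, 894 and 1007.3 CPM among those given CEFFE. Its log2 fold change in Aged was -0.32 ± 0.32, with a 95% interval of -1.04 to 0.39, and it was 0.04 ± 0.20 without Aged 33. Col1a2 was at 1314.3, 1307.9, 1467.3 and 1342.4 CPM among Control ovaries, 875, 474 and 1435 CPM among Aged ovaries and 1114.4, 1042.8 and 1378.2 CPM among those given CEFFE. In both genes 2 Aged ovaries lay below Control and Aged 34 lay within or above it, and Col1a2 passed only when Aged 34 was left out (log2 fold change -0.97 ± 0.23, adjusted p = 0.0172, edgeR). Col3a1, the chain of type III collagen of distensible tissues, was at 1273.5, 980, 1271.2 and 1203 CPM among Control ovaries, 1051.4, 548 and 1040 CPM among Aged ovaries and 1108.3, 1283.3 and 1491.4 CPM among those given CEFFE. Its log2 fold change in Aged was -0.43 ± 0.23, with an interval of -0.93 to 0.08. The FPKM ratio of Col1a1 to Col1a2 was 1.47 ± 0.0921 for Control, 1.70 ± 0.0952 for Aged and 1.75 ± 0.237 for Aged+CF, and the ranges of Control (1.35 to 1.55) and Aged (1.59 to 1.77) did not overlap. Over the 10 fibrillar genes tested, the median log2 fold change in Aged was -0.48, 9 were negative and 1 (Col11a1) passed.

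Among the rest, none of the highest collagens of their classes passed with all ovaries in the fit. Col18a1, the multiplexin that gives rise to endostatin, was at 214, 141, 180 and 152 CPM among Control ovaries, 193, 107 and 98.5 CPM among Aged ovaries and 133, 131 and 175 CPM among those given CEFFE. Its log2 fold change in Aged was -0.37 ± 0.24, and without Aged 31 it was -0.71 ± 0.19 and passed (adjusted p = 0.0469, edgeR). Col7a1, the collagen of the fibrils that anchor epithelia, was at 11.8, 7.92, 8.77 and 8.06 CPM among Control ovaries, 5.31, 2.26 and 6.12 CPM among Aged ovaries and 6.82, 7.35 and 14.2 CPM among those given CEFFE. Its Aged values lay under both other groups, with a log2 fold change of -1.0 ± 0.37 that missed the threshold by edgeR (adjusted p = 0.0949) and met it by DESeq2 (adjusted p = 0.0436). Col8a2, a short-chain collagen of the corneal basement membrane, was at 8.64, 9.79, 16.0 and 11.3 CPM among Control ovaries, 10.8, 4.23 and 28.6 CPM among Aged ovaries and 10.2, 7.98 and 9.80 CPM among those given CEFFE. Col23a1, a transmembrane collagen, was at 9.22, 7.79, 7.25 and 8.43 CPM among Control ovaries, 8.59, 5.93 and 9.26 CPM among Aged ovaries and 7.74, 8.33 and 8.95 CPM among those given CEFFE. Col26a1, a short collagen of testis and ovary, was at 22.3, 20.7, 23.5 and 19.5 CPM among Control ovaries, 14.0, 9.59 and 21.8 CPM among Aged ovaries and 15.8, 13.9 and 18.7 CPM among those given CEFFE. For Col26a1 all Aged+CF values lay under Control, with a log2 difference from Control of -0.41 ± 0.24. The remaining tested collagens had log2 fold changes in Aged from -0.78 (Col9a3) to 0.45 (Col6a5).

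Summed by class, the groups overlapped. The 11 fibrillar genes summed to 3953.6 ± 312 CPM for Control, 2864.6 ± 1212 CPM for Aged and 3886.8 ± 549 CPM for Aged+CF. The 6 type IV genes summed to 2001.5 ± 259, 1757.4 ± 515 and 2172.7 ± 266 CPM, and the other 27 to 2844.1 ± 398, 2583.6 ± 1087.5 and 2533.3 ± 464 CPM, in the same order. The spread within Aged was the widest in each class. For the fibrillar genes Aged 33 was lowest, with 1588.4 CPM, where the lowest Control had 3540.5, and for the type IV genes Aged 34 was lowest, with 1423.5 CPM, beside 1497.9 CPM in Aged 33.

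**Figure D4:**
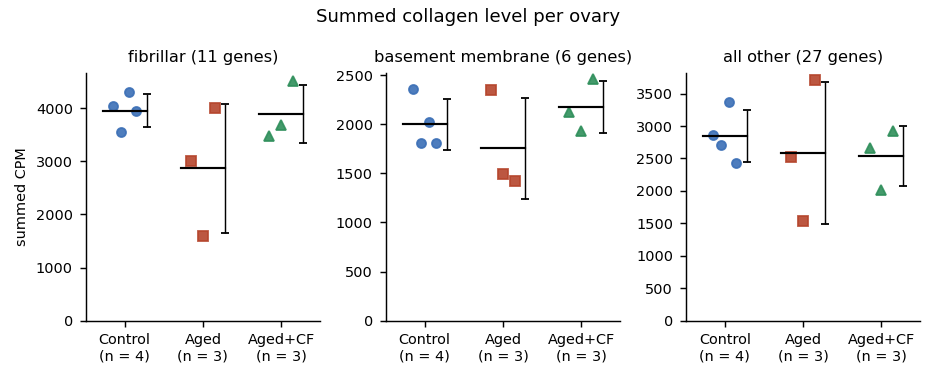
Summed CPM of the fibrillar, type IV and other collagens in each ovary of Control (circles, n = 4), Aged (squares, n = 3) and Aged+CF (triangles, n = 3), with group means as horizontal lines and 1 SD as bars. The Aged points spread most, from 1588.4 to 4000 CPM for fibrillar genes, and overlap the other groups or reach below them.

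The comparison of Aged+CF with Aged addressed what the extract changes in the old ovary. None of the 40 collagens passed, where 0.00528% of all tested genes (1 gene) did by edgeR. At the unadjusted p, 5 collagens, or 12.5%, were higher (Col9a2, Col8a1, Col11a1, Col7a1 and Col5a2), against 3.91% of all genes, and 1 was lower (Col6a6), against 4.05%. The values of 7 collagens lay wholly above those of Aged (Col3a1, Col4a3, Col4a4, Col5a2, Col7a1, Col8a1 and Col9a2), against 10.2% of all genes, and 0 lay wholly below, against 8.39%. The median log2 fold change was 0.31, beside -0.021 over all genes. This comparison shares the Aged ovaries with the one before, so a low value in Aged enters both. By DESeq2's Wald test 3 collagens passed, Col9a2, Col8a1 and Col11a1, all higher in Aged+CF, where 1.13% of all genes passed as higher.

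**Figure D5:**
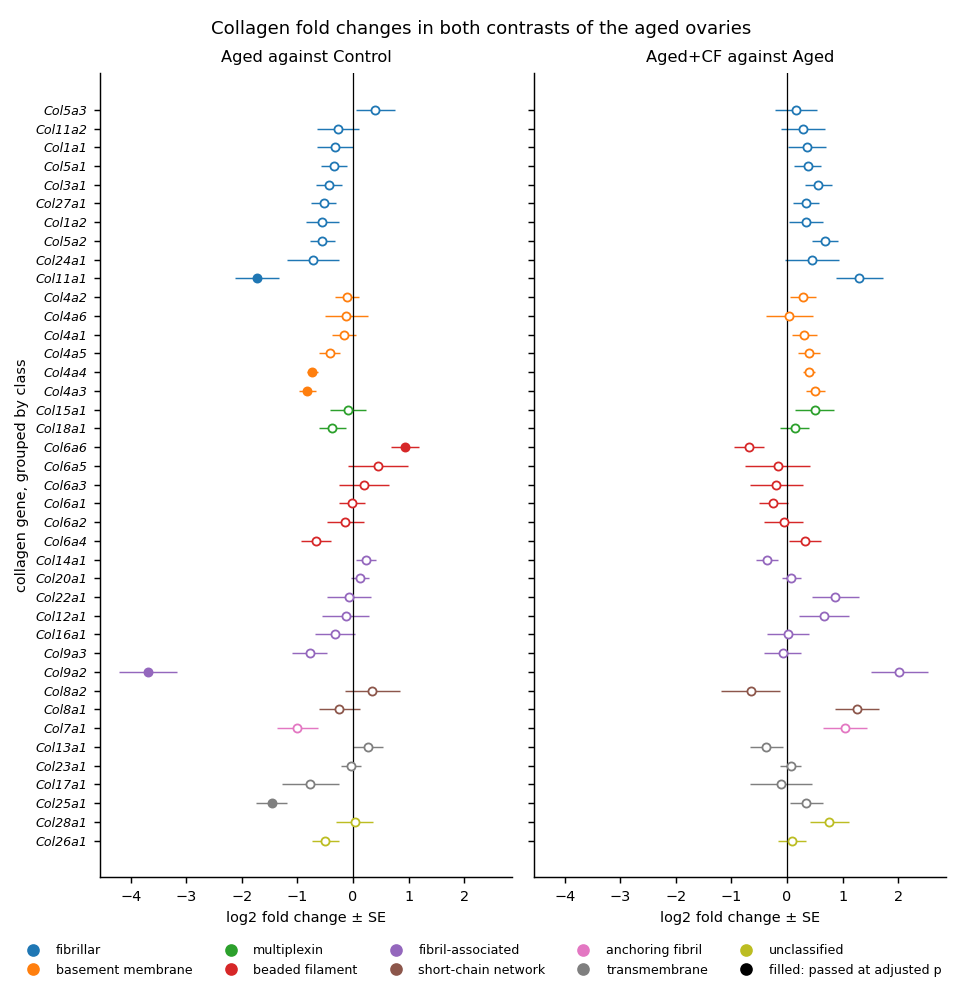
Log2 fold changes with 1 SE of the 40 tested collagens, ordered by class, in Aged against Control (left) and Aged+CF against Aged (right). Filled points passed at the adjusted p; there are 6 on the left and none on the right, and both panels use the same Aged ovaries.

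The plot of fold changes shows Col9a2 farthest from 0 in both contrasts. Its log2 fold change in Aged+CF against Aged was 2.02 ± 0.51 (adjusted p = 0.164, edgeR), with an interval of 0.88 to 3.16. Col8a1, a short-chain collagen made by vascular and other cells, was at 8.35, 3.87, 7.30 and 7.32 CPM among Control ovaries, 9.25, 3.03 and 4.63 CPM among Aged ovaries and 11.2, 16.0 and 13.5 CPM among those given CEFFE. It was the collagen whose Aged+CF values lay above every other ovary, with a log2 difference from Aged of 1.26 ± 0.39 (adjusted p = 0.199, edgeR) and from Control of 1.01 ± 0.36 (adjusted p = 0.253, edgeR). Col4a4 differed by 0.39 ± 0.11, a fold of 1.31 that is under the fold threshold (adjusted p = 0.171, edgeR), and Col4a3 by 0.51 ± 0.17 (adjusted p = 0.211, edgeR). Col6a6 was lower by the fit, at -0.68 ± 0.27 (adjusted p = 0.262, edgeR). For Col1a1, Col1a2 and Col3a1 the intervals were -0.40 to 1.11, -0.36 to 1.05 and 0.02 to 1.09. Without Aged 34, 17 collagens were higher at the unadjusted p, against 5.67% of all genes, and 2 lower, against 6.54%. None passed at the adjusted p there, where 2.87% of all genes did. Without Aged 33, 3 were higher at the unadjusted p, against 3.92% of all genes, and 1 lower, against 3.96%, and without Aged+CF 34, 3 differed in either direction, against 5.95%. The collagens lying wholly above Aged numbered 20 without Aged 34, against 20.1% of all genes, 8 without Aged 33, against 15.3%, and 12 without Aged 31, against 15.2%, and those lying wholly below numbered 2, 3 and 1, against 18.6%, 12.8% and 13.2%.

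In Aged+CF against Control, which compares treated old with young ovaries, none of the 40 collagens passed by edgeR, where 0.179% of all tested genes (34 genes) did. At the unadjusted p, 2 were higher (Col8a1 and Col28a1), against 3.33% of all genes, and 3 were lower (Col9a2, Col25a1 and Col9a3), against 4.36%. The values of 1 collagen lay wholly above Control, against 9.69% of all genes, and those of 7 wholly below (Col17a1, Col25a1, Col26a1, Col4a4, Col6a4, Col9a2 and Col9a3), against 12.2%. The median log2 fold change was -0.06, beside -0.028 over all genes. For Col9a2 the difference was -1.67 ± 0.47 (adjusted p = 0.171, edgeR), and for Col25a1 it was -1.10 ± 0.27 (adjusted p = 0.131, edgeR). Both passed by DESeq2's Wald test, with adjusted p of 0.0148 and 0.0299, where 1.15% of all genes passed as lower. Col9a2 also passed by edgeR when Aged 34 was left out of the fit (adjusted p = 0.0363) and when only Control and Aged+CF were fitted (adjusted p = 0.0427). Without Aged+CF 34, 12 collagens lay wholly below Control, against 19.2% of all genes, and 3 wholly above, against 14.6%. For Col11a1 the difference was -0.43 ± 0.38, with an interval of -1.28 to 0.43.

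Enzymes and chaperones that make collagen were read from a list of 40 genes, of which 38 were tested. In Aged 3 fell, against 6.06% of all genes, and 2 rose, against 5.0% (edgeR adjusted p from 0.00417 to 0.0343), with a median log2 fold change of 0.01 over the list. P4ha3, a subunit of prolyl 4-hydroxylase, fell from 2.84 ± 0.313 to 0.958 ± 0.372 CPM (log2 fold change -1.57 ± 0.28). Adamts2, which removes the amino-terminal propeptide of fibrillar procollagens, fell from 373 ± 27.3 to 192 ± 31.1 CPM (-0.96 ± 0.12). Fkbp10, a collagen chaperone of the endoplasmic reticulum, fell from 138 ± 8.46 to 87.9 ± 15.3 CPM (-0.65 ± 0.12). The 2 that rose were Pcolce, which enhances cleavage of the carboxyl propeptide, from 269 ± 56.0 to 561 ± 247 CPM (1.06 ± 0.29), and Mia2, of the family that exports large cargo from the endoplasmic reticulum, from 99.7 ± 7.53 to 162 ± 38.7 CPM (0.70 ± 0.16). None of the 5 lysyl oxidases, which cross-link collagen, passed.

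Of 9 collagen receptors tested, Ddr1, a receptor tyrosine kinase, fell in Aged from 158 ± 18.1 to 100 ± 30.2 CPM (log2 fold change -0.66 ± 0.19) and Lair1, an inhibitory receptor of leukocytes, rose from 3.33 ± 0.626 to 5.61 ± 0.982 CPM (0.75 ± 0.22). Their adjusted p were 0.0455 and 0.0473 (edgeR). Of 17 partners of type IV collagen in basement membranes, 3 fell and 2 rose (edgeR adjusted p from 0.0107 to 0.0334), and the shares of all genes beside these and the receptors are again 6.06% and 5.0%. The laminin chains Lama1 (-0.83 ± 0.20) and Lama2 (-0.95 ± 0.25) and the peroxidase Pxdn (-0.72 ± 0.13), which forms the sulfilimine bonds of type IV collagen, fell in Aged, and the laminin chains Lama5 (0.80 ± 0.21) and Lamb3 (1.69 ± 0.39) rose. In both comparisons of Aged+CF, 0 genes of these 3 lists passed by edgeR. At the unadjusted p, in Aged+CF against Aged, 1 gene of the machinery list was higher and 1 was lower, 2 of the partners were higher and 1 was lower, and 0 of the receptors passed, where 3.91% of all genes were higher and 4.05% lower.

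Markers of several cell types moved with the groups. Beside the counts of markers that follow, 6.06% of all tested genes fell in Aged and 5.0% rose. Summed over 8 oocyte markers, of which 7 fell in Aged, the level ran from 325 to 443 CPM for Control, 11.2 to 92.3 for Aged and 124 to 191 for Aged+CF. Summed over 5 markers of proliferating cells, of which 3 fell, it was 359 to 484, 49.0 to 162 and 189 to 287 CPM. All 6 luteal markers rose in Aged, with sums of 4324.3 to 7084.7 CPM for Control, 9186.9 to 23138.1 for Aged and 8457 to 14662.5 for Aged+CF. Of 6 endothelial markers 5 rose, with sums of 332 to 429, 497 to 678 and 444 to 464 CPM, and of 6 macrophage markers 3 rose, with sums of 356 to 440, 705 to 1771.4 and 623 to 677 CPM. None of 6 granulosa markers passed, with sums of 3735.9 to 5718.9, 2726.4 to 3421.1 and 2240.3 to 3466.3 CPM, and none of 7 stromal fibroblast markers did, with sums of 884 to 1015.6, 686 to 2189.2 and 1088.3 to 1186.4 CPM. Of 5 theca markers 2 fell (Ptch1 and Gli1), but the theca sums overlapped. They were 2174 to 2902.6 CPM for Control, 1724.7 to 5068.7 for Aged and 2355.4 to 2654.9 for Aged+CF, with means of 2499.3, 3177 and 2462.2 CPM. None of 6 smooth muscle, 5 surface epithelium, 5 adipocyte or 5 tested oviduct markers passed. By group means, the order Control, Aged+CF, Aged of the oocyte and proliferation sums was also that of Col9a2, Col4a4 and Col4a3. Other collagens shared it, among them Col11a1, Col25a1, Col6a4 and Col1a2, while Col1a1 and Col3a1 did not. The part of the marked cell types in the collagen results was not tested.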

How the data were processed

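RNA of 10 whole mouse ovaries was sequenced, and the authors deposited 1 table with raw counts of reads per gene and FPKM per gene, made per the labels with TopHat and Cufflinks 2.1.1 on GRCm38.p4. In 100% of values the deposited FPKM went with 1 length per gene over all libraries (tolerance 0.001). That length was worked out from the same counts and FPKM, so the lengths themselves were not checked in this way. They differ from the exon lengths of GENCODE M21, as for Col15a1, with 9353 against 6349 bases. The strand setting of the counting is not given in the sources used here. Totals of 15761789 to 21318254 counts per ovary make sampling error small for abundant collagens and large for those with a few reads. None of the 45 pairs of libraries agreed within sampling noise (chi-square per degree of freedom 17.3 or more).

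Collagens were selected by their symbols, and were chosen, like the lists of machinery, receptors, partners and cell type markers, with earlier results of these data known. Counts of all genes that passed filterByExpr (18956; 40 of 44 collagens) were fitted in 1 edgeR 4.0.16 quasi-likelihood model over the 10 ovaries (R 4.3.3, TMM scaling), and Benjamini-Hochberg adjusted p-values cover all genes tested. A call needed a fold of 1.5 and p under 0.05, adjusted as in the study's methods, with a second count at the unadjusted p of the series text. Standard errors are the absolute log2 fold change over the square root of F, and 95% intervals use the t distribution with the degrees of freedom of that test. In tests on simulated data the script recovered 51% of 2-fold changes for Aged against Control. The simulated spread was the same for every gene and group. In the data the biological coefficient of variation was wider in Aged, at 0.378 against 0.209 in Control and 0.193 in Aged+CF. The share recovered therefore does not carry over to these ovaries. Alternatives were DESeq2 1.42.0, its size factors, no filter, only the groups compared, limma 3.58.1 on log2(FPKM + 1) and log2(FPKM + 0.1), a replicate block, and each ovary left out; leaving out ovaries for the counts of collagens without overlap was chosen after seeing the data. Named genes were the major chains of types I, III, IV and VI, every collagen that passed, the highest per class, and the smallest p in the comparisons of Aged+CF. The labels do not say that each library is a separate animal, so p-values measure the spread between these samples. Positions came from GENCODE M21 (GRCm38), promoters from RefSeq (GRCm38.p6). Col21a1 was not analysed here.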

Additional observations from a re-analysis of the deposited data

Results flagged for a closer look

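The Control ovaries were close to each other for Col4a4, at 101, 102 and 103 CPM, except Control 34 at 90.1 CPM. The gap of the lowest value to the nearest other was 0.864 of the whole range of the group, above Dixon's 95% critical value for 4 samples. This was 1 of 44 values tested in this way, and chance flags about 1 in 20. Control 34 was nearer to the Aged values than the other Control ovaries were, and all 3 Aged values stayed below it.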

How the results depend on the processing

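Of 582 values of named collagens under the alternatives, 547 kept their side of the threshold and either their sign or a distance under 1 SE, 16 lost a call, 10 gained one and 9 crossed 0 with a move of over 1 SE (Col1a1, Col23a1, Col6a2, Col6a3 and Col8a2). In all, 32 values of 11 collagens lay on the other side of 0, and 0 of these were calls; the other collagens were Col18a1, Col26a1, Col4a1, Col4a2, Col6a1 and Col8a1. In Aged against Control, the count of collagens that passed went from 6 to 3 by limma on log2(FPKM + 1), where 7.88% of all genes passed, and at the unadjusted p from 9 to 15 by limma on log2(FPKM + 0.1), where 17.8% did. The former lost Col25a1, Col4a3 and Col6a6, and the latter lost Col6a6 at the adjusted p. Leaving out 1 ovary gave 4 to 12 collagens, with 5.74% to 16.1% of all genes, and 6 to 19 at the unadjusted p, with 16.2% to 22.1%. Medians were -0.62 to -0.02, and 10 to 23 collagens were without overlap. Of all genes, 16.9% to 24.2% then lay wholly below Control and 13.5% to 20.5% wholly above. In Aged+CF against Aged, DESeq2 called 3 in place of 0, where 2.33% of all genes passed. Leaving out 1 ovary gave 3 to 19 at the unadjusted p, with 5.95% to 12.2% of all genes, and medians of 0.08 to 0.60. It gave 7 to 22 collagens without overlap, where 13.1% to 20.1% of all genes lay wholly above Aged and 11.2% to 18.6% wholly below. In Aged+CF against Control, DESeq2 called 2 (2.79% of all genes) and the fit of only these groups called 1 (Col9a2; 2.63%) in place of 0, as did the fit without Aged 34 (Col9a2; 1.80%). At the unadjusted p limma on log2(FPKM + 1) gave 1 in place of 5, with 3.69% of all genes. Leaving out 1 ovary gave 2 (without Aged+CF 32) to 6, with 4.38% to 7.95%. It gave 9 to 15 collagens without overlap, where 14.0% to 19.2% of all genes lay wholly below Control and 11.1% to 14.6% wholly above. The cause of these differences was not tested. The replicate numbers in the titles are shared between groups, but the deviations of same-numbered ovaries correlated at -0.13 to 0.23, so the numbers were not taken to pair animals. With the replicate block, 1 collagen passed in Aged against Control (Col6a6, higher) in place of 6, where 80 genes passed in place of 2096, and 3 collagens in place of 5 were counted at the unadjusted p in Aged+CF against Control. In that fit the log2 fold change of Col9a2 was -3.68 and its adjusted p 0.0646. The filter left out Col2a1, Col9a1, Col10a1 and Col19a1; fitted without it, none of these passed by edgeR, and Col10a1 (log2 fold change in Aged -1.51 ± 0.44, adjusted p = 0.0926) was counted at the unadjusted p.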
